A study of Mus musculus with 16 samples.

Results

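Transcripts of the complement system were followed in mouse cortex as a fixed list of 31 genes, matched by gene symbol among the 55487 genes of the expression table. The list was drawn up by membership in the pathway, with earlier results of these data known. It holds 9 genes of the classical pathway, 2 of the lectin pathway, *C3*, 3 of the alternative pathway, 4 of the terminal pathway, 5 receptors and 7 inhibitors. The 16 mice were WT C57Bl6 males aged 2 months. They received intraperitoneal LPS (lipopolysaccharide, the bacterial wall component used to induce systemic inflammation) at 2 mg/kg or PBS (phosphate-buffered saline, the vehicle), in 2 injections on consecutive days, either at ZT1, 1 h after lights on, or at ZT13, 1 h after lights off. Tissue was taken 24 h after the last injection, so injection time and collection time of day cannot be told apart. There were 3 PBS and 5 LPS mice at each time, each a separate animal by its title. No transgene was carried. The RNA came from whole cortex tissue, so more cells of a type and more RNA in each such cell cannot be told apart.

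Complement is a cascade of proteases and binding proteins that marks targets for phagocytosis, recruits leukocytes and can perforate membranes. The classical pathway starts when C1q binds a target and its partner proteases C1r and C1s cleave C4 and C2. The lectin pathway reaches the same step through the MASP proteases. All routes meet at C3, whose cleavage is amplified by factor B of the alternative pathway, and cleavage of C5 then begins the terminal, membrane-attacking steps. In the brain, microglia are the main source of C1q, reactive astrocytes are known for C3 and C4, and C1q and C3 have been tied to removal of synapses.

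Promoter sequences are shown for 5 members that rose and that held a match to a motif searched, chosen after the matches were seen, from different parts of the cascade. The windows of *C1qb*, *C1qc*, *Cr1l*, *Cfp* and *Cd55*, which also rose, held no match and are not printed. The sequences are the 250 bases before the start site in RefSeq (GRCm38.p6), written 5′ to 3′ on the strand of the gene. Capitals mark matches, on either strand, to GAAANNGAA (interferon-stimulated response element), GGNNTTTCC (NF-kappaB) or TTGCNNAA (C/EBP). *C3* lies on the minus strand with the printed bases at chr17:57228137-57228386, and its match starts 45 bases before the start site. *C1s1* lies on the minus strand (chr6:124542360-124542609). *C1rl* lies on the plus strand (chr6:124492863-124493112). *C5ar1* lies on the minus strand (chr7:16259339-16259588) and *C3ar1* on the minus strand (chr6:122856158-122856407).
C3: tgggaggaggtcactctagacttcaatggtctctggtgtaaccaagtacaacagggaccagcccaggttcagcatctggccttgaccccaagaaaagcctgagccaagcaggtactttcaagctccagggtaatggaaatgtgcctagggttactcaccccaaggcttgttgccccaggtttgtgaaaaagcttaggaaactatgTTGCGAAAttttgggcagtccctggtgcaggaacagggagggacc
C1s1: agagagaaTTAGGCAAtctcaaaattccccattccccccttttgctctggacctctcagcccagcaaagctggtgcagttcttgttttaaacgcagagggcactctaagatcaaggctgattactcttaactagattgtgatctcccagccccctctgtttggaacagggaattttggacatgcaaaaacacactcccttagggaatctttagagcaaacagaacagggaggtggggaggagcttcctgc
C1rl: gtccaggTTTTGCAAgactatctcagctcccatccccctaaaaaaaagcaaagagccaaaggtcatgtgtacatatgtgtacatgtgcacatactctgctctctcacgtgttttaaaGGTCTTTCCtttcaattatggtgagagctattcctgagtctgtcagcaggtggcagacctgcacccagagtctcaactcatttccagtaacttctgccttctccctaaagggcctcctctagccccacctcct
C5ar1: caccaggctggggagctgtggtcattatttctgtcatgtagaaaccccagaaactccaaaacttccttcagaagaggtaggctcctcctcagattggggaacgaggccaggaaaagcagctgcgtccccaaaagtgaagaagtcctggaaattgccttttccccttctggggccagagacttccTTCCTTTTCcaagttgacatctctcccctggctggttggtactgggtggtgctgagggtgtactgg
C3ar1: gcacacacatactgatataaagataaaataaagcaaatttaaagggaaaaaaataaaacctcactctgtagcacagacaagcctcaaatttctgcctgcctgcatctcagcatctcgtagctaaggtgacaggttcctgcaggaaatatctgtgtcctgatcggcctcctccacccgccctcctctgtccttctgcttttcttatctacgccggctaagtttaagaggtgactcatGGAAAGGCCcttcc
*C3*, *C1s1* and *C1rl* held a match to C/EBP. *C1rl* and *C3ar1* held 1 to NF-kappaB, and *C5ar1* held 1 to the interferon element. Windows that ran on to 50 bases past the start were found for 22 members. The C/EBP letters were in the windows of *C1ra*, *C1rl*, *C1s1*, *C3* and *C5ar2* and in 10.8% of 32851 windows of all genes. *C1s1* had a pair of listed start sites, and only the window of the site farther upstream held the match. The NF-kappaB letters were in *C1rl* and *C3ar1* (5.82% of all windows). The interferon element was in *C5ar1*, *C7*, *Cd46* and *Cd59a* (8.56% of all windows). The gamma-activated sequence TTCNNNGAA was in *C1ra*, *C7* and *Masp2* (8.3% of all windows). A match is a description of letters and not a binding site. No entry was found for *C1qa*, *C2*, *C4a*, *C4b*, *Cfb*, *Cfi*, *Clu*, *Masp1* and *Serping1*.

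Expression is given as CPM, the reads on a gene per 1000000 reads on all genes of that sample, at a depth of 20251840 to 29112758 reads on genes per sample. The treatment field of the labels contradicted the title for 12 of the 16 samples, and groups follow the titles. *Gfap*, an astrocyte filament gene, was at 111 to 123 CPM in the mice titled PBS and 572 to 1130 CPM in those titled LPS. Markers of cortical neurons summed to 2790 to 3223 CPM over the 16 mice. Markers of choroid plexus, a neighbouring tissue, summed to 14.0 to 972 CPM and varied from mouse to mouse within each group. Of the 31 members, 25 had at least 1 CPM in at least 3 mice and were tested. Of these, *C1rl*, *C1s1*, *C3*, *C5ar1*, *C5ar2*, *Cfb* and *Masp2* had fewer than 3 PBS mice at that level and passed only through LPS mice, which favours a difference between the groups. The other 6 are given by their values alone.

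Most complement transcripts at a testable level in cortex were higher after LPS, whether it was injected at ZT1 or at ZT13. At ZT1, 17 of the 25 tested members were higher in LPS than in PBS mice at an adjusted p under 0.05 and 0 were lower, while over all 18859 genes tested 11.1% were called higher and 5.15% lower. At ZT13, 19 members were called higher and 0 lower, against 19.2% of all genes higher and 9.4% lower. Leaving out the 7 members that passed only through LPS mice, 11 of 18 were called higher at ZT1 and 13 of 18 at ZT13. The share of all genes was not counted under that restriction. With no filter on low values, 15 of all 31 members were called higher at ZT1, against 3.03% of genes, and 18 at ZT13, against 7.84%. In that fit *C1s1*, *C3*, *C5ar1*, *C5ar2* and *Cfb* were called at both times (adjusted p 0.00210 to 0.00944 at ZT1 and 2.2e-06 to 0.00719 at ZT13). The 18 called at ZT13 in that fit include *C6*, which was at 0 reads in the PBS mice and at 1 to 2 reads in each ZT13 LPS mouse. In both comparisons the LPS and PBS values of each called member did not overlap, as was so with LPS higher for 15.9% of all genes at ZT1 and 20.9% at ZT13. The count of members at an unadjusted p under 0.05 in the lower direction was also 0. The median change of the tested members, on the log2 scale, was 0.95 at ZT1 (all genes 0.04) and 0.91 at ZT13 (all genes 0.05). Without those 7 members it was 0.40 and 0.56, and no median of all genes was taken under that restriction. All 17 members called at ZT1 were also called at ZT13. *Cfp* and *Cd55* were called at ZT13 and not at ZT1. Fold changes are on the scale of log2(CPM + 0.5), which understates changes of genes with low values.

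**Figure D1:**
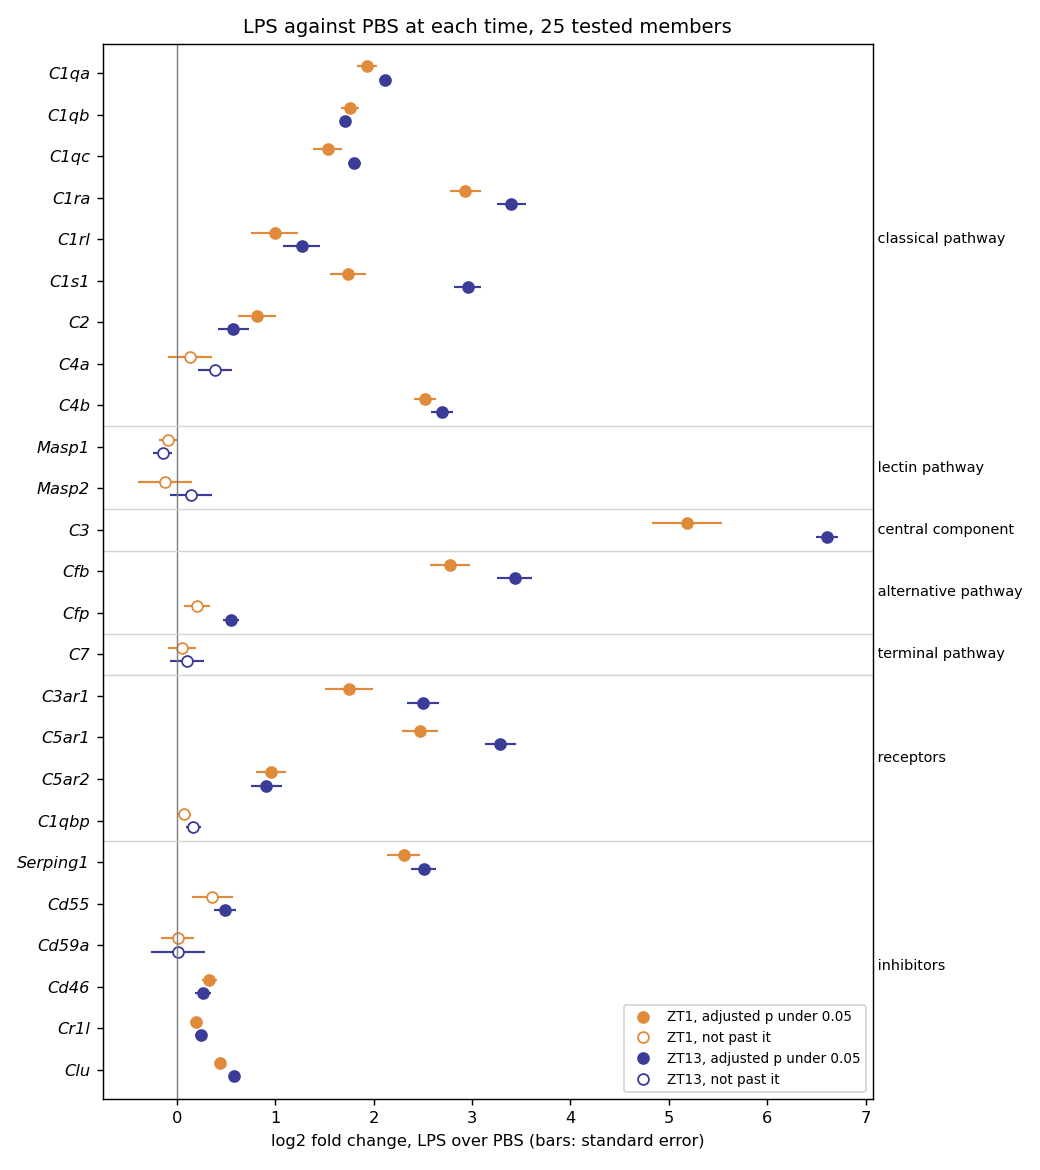
Log2 fold change of LPS over PBS mice (x axis) for the 25 tested complement genes (y axis, grouped by role), at ZT1 (orange) and ZT13 (blue), with standard errors as bars and filled points for an adjusted p under 0.05. *C3* lies farthest to the right at 5.19 and 6.60, and the classical pathway genes other than *C4a* lie to the right of 0 at both times, while *Masp1*, *Masp2*, *C7* and *Cd59a* lie near 0.

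In the classical pathway, 8 of 9 members rose at both times. The recognition molecule C1q is built of the chains encoded by *C1qa*, *C1qb* and *C1qc*, which lie within 18.7 kb on chromosome 4 (chr4:136880129-136898803, GRCm38). *C1qa* averaged 16.7 ± 0.94 CPM (SD, n = 3) in ZT1 PBS and 65.7 ± 9.65 CPM (n = 5) in ZT1 LPS mice, and 17.2 ± 0.62 against 76.4 ± 5.58 CPM at ZT13. *C1qb* averaged 19.1 ± 1.19 and 66.2 ± 7.64 CPM at ZT1, and 20.9 ± 0.41 and 69.7 ± 1.77 CPM at ZT13. *C1qc* averaged 23.8 ± 1.05 and 71.3 ± 15.0 CPM at ZT1, and 23.2 ± 1.05 and 82.6 ± 6.98 CPM at ZT13. The chains thus stood at 2.99 to 4.45 times the PBS mean, with log2 fold changes of 1.54 to 1.94 at ZT1 and 1.71 to 2.12 at ZT13. Levels between the chains were compared per kb of exon. *C1qa* was at 0.88 to 0.94 times the level of *C1qb* per kb in ZT1 PBS mice and at 0.90 to 1.12 times in ZT1 LPS mice, which overlap. At ZT13 it was at 0.83 to 0.90 times with PBS and at 1.06 to 1.29 times with LPS.

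The proteases that C1q activates lie side by side on chromosome 6, where *C1rl*, *C1ra* and *C1s1* span 49.2 kb (chr6:124493113-124542359). *C1ra*, which encodes the protease C1r, was at 1.51, 1.63 and 1.90 CPM in ZT1 PBS mice and at 21.02, 14.4, 18.4, 16.1 and 12.1 CPM in ZT1 LPS mice. At ZT13 it was at 1.71, 1.80 and 1.34 CPM with PBS and 18.2, 18.8, 29.1, 24.8 and 19.6 CPM with LPS. Every LPS mouse lay far above every PBS mouse, and the mean was 9.75 times higher at ZT1 and 13.7 times higher at ZT13. The log2 fold changes were 2.93 (SE 0.16, adjusted p = 7.53e-07) and 3.40 (SE 0.14, adjusted p = 1.18e-09). *C1s1* encodes the protease C1s, the substrate of C1r. It was at 1.18, 0.64 and 0.84 CPM in ZT1 PBS mice and at 5.32, 2.99, 4.18, 4.37 and 3.80 CPM in ZT1 LPS mice. The values at ZT13 were 0.38, 0.42 and 0.36 CPM with PBS and 5.49, 5.63, 7.25, 7.30 and 6.36 CPM with LPS. The ZT13 groups thus lay farther apart on both sides, lower with PBS and higher with LPS than at ZT1. The log2 fold changes were 1.74 (SE 0.18, adjusted p = 8.62e-05) at ZT1 and 2.96 (SE 0.13, adjusted p = 2.1e-09) at ZT13. *C1s1* passed the filter only through LPS mice, and with no filter its adjusted p was 0.00656 and 3.02e-05. *C1rl*, a C1r-like protease gene, rose from a mean of 0.26 to 1.07 CPM at ZT1 (log2 fold change 1.00) and from 0.33 to 1.53 CPM at ZT13 (1.27). Its ZT1 call did not hold under quantile normalization (adjusted p = 0.0886), with no filter on low values (0.0799) or with the replicate number as a block (0.0553), nor without ZT1 PBS replicate 1 (0.0596) or 2 (0.0651).

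C1s cleaves C4 and C2, and their genes lie with *Cfb* within 169.9 kb of chromosome 17 (chr17:34728380-34898265). *C4b*, the main C4 gene of the mouse, was at 19.0, 19.6 and 19.9 CPM in ZT1 PBS mice and 128, 93.4, 113, 142 and 103 CPM in ZT1 LPS mice. In ZT13 mice the gene was at 17.5, 26.1 and 19.3 CPM with PBS and at 137, 142, 159, 133 and 117 CPM with LPS. The groups were wide apart at both times, with log2 fold changes of 2.53 (SE 0.11, adjusted p = 1.75e-07) and 2.70 (SE 0.11, adjusted p = 8.57e-10). Its near-identical neighbour *C4a* averaged 2.49 and 2.91 CPM at ZT1 and 2.19 and 3.07 CPM at ZT13, and it was not called (log2 fold change 0.14, adjusted p = 0.735, and 0.39, adjusted p = 0.118), except at ZT13 without LPS replicate 1 (0.49, adjusted p = 0.0412). Per kb of exon, *C4b* averaged 8.57 times the level of *C4a* in ZT1 PBS mice and 47.3 times in ZT1 LPS mice. At ZT13 it averaged 10.8 times with PBS and 51.8 times with LPS. Reads could be shared between these copies, so the values of *C4a* are uncertain. *C2* rose from a mean of 1.60 to 3.23 CPM at ZT1 (log2 fold change 0.81) and from 1.58 to 2.58 CPM at ZT13 (0.58). *C2* overlaps *Zbtb12*, which lies on the other strand at 4.39 to 8.14 CPM, and the sources used here do not say whether counting used strand. The *C2* call at ZT13 was lost under quantile normalization (adjusted p = 0.114), with no filter (0.0609) and with the replicate block (0.067), and at ZT1 with no filter (0.0886). Without PBS replicate 1 or 3 the *C2* call was lost at ZT1 (adjusted p = 0.0632 and 0.0753) and at ZT13 (0.0772 and 0.0576).

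**Figure D2:**
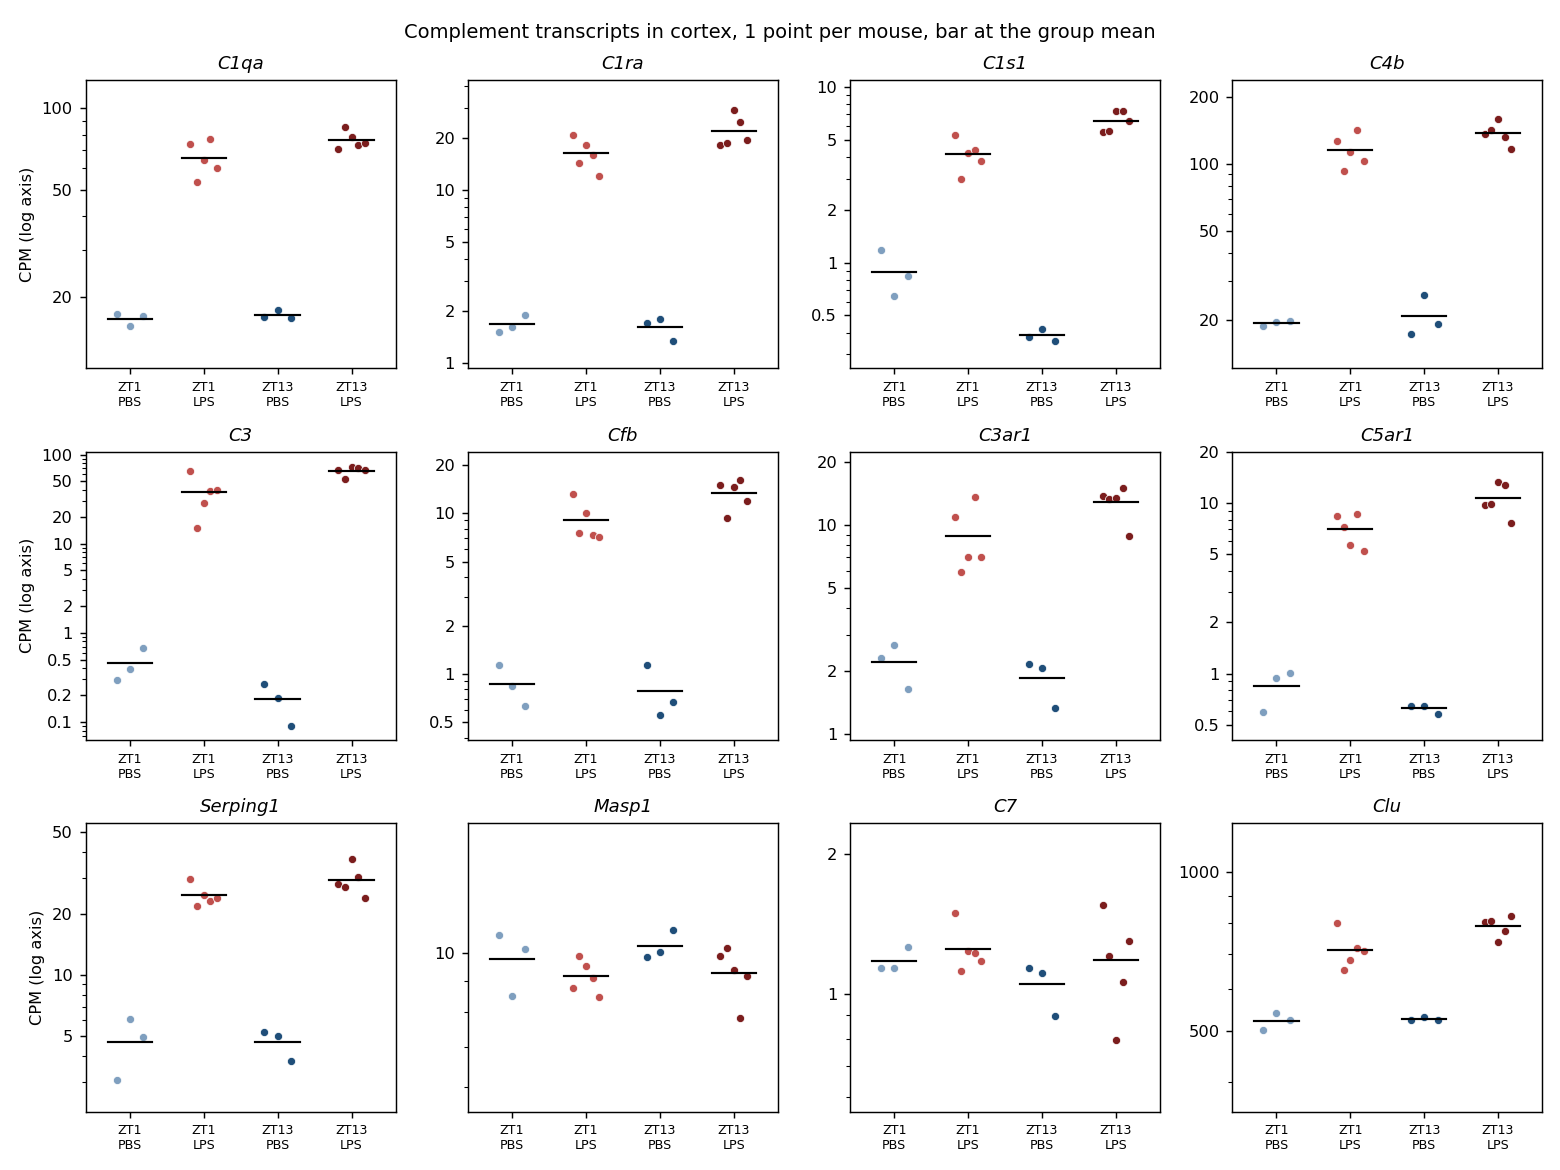
CPM (y axis, log scale, a separate range in each panel) of 12 complement genes in each mouse of the ZT1 PBS, ZT1 LPS, ZT13 PBS and ZT13 LPS groups (x axis), with 1 point per mouse and a bar at the group mean. In the 9 panels from *C1qa* to *Serping1* all LPS points lie above the PBS points of the same time, *Masp1* and *C7* overlap, and *Clu* separates at 503 to 541 CPM against 654 to 825 CPM.

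The lectin pathway members did not pass the test at either time. *Masp1*, whose product starts the lectin pathway, averaged 9.78 CPM with PBS and 9.15 CPM with LPS at ZT1 (log2 fold change -0.09, adjusted p = 0.592), and 10.3 and 9.29 CPM at ZT13 (-0.14, adjusted p = 0.287). Under quantile normalization alone *Masp1* was called lower at ZT13 (-0.32, adjusted p = 0.0239). *Masp1* overlaps *Rtp4* (0.35 to 6.27 CPM) and *Gm45338* (0.58 to 1.43 CPM) on the other strand, so antisense reads may enter its value. *Masp2*, which encodes the protease that cleaves C4, ranged from 0.38 to 1.42 CPM over the 16 mice, with log2 fold changes of -0.12 and 0.15, and its sign at ZT13 turned under quantile normalization (-0.26). It overlaps *Tardbp* on the other strand, a gene at 98.6 to 114 CPM.

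*C3*, the component on which all routes meet, had the largest log2 fold change of the members at both times, and it passed the filter only through LPS mice. It was at 0.30, 0.40 and 0.67 CPM in ZT1 PBS mice, which corresponds to 6, 8 and 16 reads, and at 66.0, 14.9, 28.8, 39.1 and 39.5 CPM in ZT1 LPS mice. Its ZT13 values were 0.27, 0.19 and 0.09 CPM with PBS, or 7, 4 and 2 reads, and at 67.4, 52.6, 72.0, 70.2 and 66.3 CPM with LPS. The transcript was thus near the limit of detection in PBS mice and among the LPS mice was lowest in ZT1 replicate 2, while the ZT13 LPS mice lay close together. The log2 fold changes were 5.19 (SE 0.36) and 6.60 (SE 0.11), with an adjusted p of 0.00261 and 2.2e-06 in the fit with no filter. Group means stood in a ratio of 82.8 at ZT1 and 365 at ZT13, and the latter divides by a PBS mean of 0.18 CPM that rests on those few reads. The gene lies at chr17:57203970-57228136.

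In the alternative pathway, *Cfb* rose at both times, *Cfp* at ZT13, and *Cfd* was not detected. *Cfb* encodes factor B, the protease subunit of the alternative C3 convertase. It was at 1.13, 0.84 and 0.64 CPM in ZT1 PBS mice and 13.2, 7.52, 10.1, 7.32 and 7.07 CPM in ZT1 LPS mice. At ZT13 it was at 1.14, 0.56 and 0.67 CPM with PBS and 15.1, 9.33, 14.6, 16.1 and 11.9 CPM with LPS. The lowest LPS mouse was several times above the highest PBS mouse, and the log2 fold changes were 2.78 (SE 0.20, adjusted p = 6.1e-06) and 3.43 (SE 0.18, adjusted p = 8.24e-09). *Cfb* passed the filter only through LPS mice, and with no filter its adjusted p was 0.00237 and 1.76e-04. *Cfp*, which encodes properdin, the protein that stabilizes that convertase, averaged 6.87 and 8.09 CPM at ZT1 (log2 fold change 0.21, adjusted p = 0.344) and rose from 5.94 to 8.94 CPM at ZT13 (0.55, adjusted p = 1.48e-04). Without ZT1 LPS replicate 2 it was also called at ZT1 (0.31, adjusted p = 0.0478). *Cfd*, the gene of the factor D protease, had 0 reads in 15 of the mice and was at 0.04 CPM in ZT1 LPS replicate 4. A count of 0 allows up to 3 reads, or 0.103 to 0.148 CPM at these depths, for counting error only.

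Genes of the terminal pathway were low or not detected. *Hc*, the mouse gene for C5, was at 0.10 to 0.58 CPM. *C6* was at 0 in the PBS mice and never above 3 reads in the LPS mice, at most 0.14 CPM. *C8g* was at 0.22 to 1.03 CPM and overlaps *Fbxw5* on the other strand, a gene at 65.7 to 81.0 CPM. *C7*, the only member of the group that was tested, averaged 1.18 and 1.25 CPM at ZT1 (log2 fold change 0.06, adjusted p = 0.83) and 1.05 and 1.18 CPM at ZT13 (0.11, adjusted p = 0.703), and its sign turned under quantile normalization. Of the other genes needed for the membrane attack complex, *C8a* was at no more than 0.31 CPM and *C8b* at no more than 0.39 CPM. Complement proteins that reach the brain from plasma were not measured here.

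Among the receptors, those for the C3a and C5a fragments rose. *C5ar1*, the signalling receptor for C5a, was at 0.59, 0.94 and 1.01 CPM in ZT1 PBS mice and 8.44, 7.21, 5.70, 8.61 and 5.21 CPM in ZT1 LPS mice. The values at ZT13 were 0.65, 0.65 and 0.58 CPM with PBS and 9.70, 9.93, 13.4, 12.8 and 7.61 CPM with LPS. The log2 fold changes were 2.47 (SE 0.18, adjusted p = 6.53e-06) and 3.29 (SE 0.16, adjusted p = 4.39e-09), and the groups did not overlap. *C5ar1* passed the filter only through LPS mice, and with no filter its adjusted p was 0.0021 and 1.07e-04. *C3ar1*, the C3a receptor, was at 2.32, 2.67 and 1.64 CPM in ZT1 PBS mice and 11.0, 5.95, 7.04, 13.5 and 7.02 CPM in ZT1 LPS mice. In ZT13 mice the gene was at 2.16, 2.08 and 1.34 CPM with PBS and 13.7, 13.3, 13.4, 15.0 and 8.91 CPM with LPS. ZT13 LPS replicate 5 was the low mouse of its group for both receptors. The log2 fold changes of *C3ar1* were 1.75 (SE 0.24, adjusted p = 5.89e-04) and 2.50 (SE 0.16, adjusted p = 6.65e-08). *C5ar2*, a C5a receptor that does not couple to G proteins and lies beside *C5ar1* on chromosome 7, was at 0.64, 0.69 and 0.63 CPM in ZT1 PBS mice and 2.10, 1.39, 1.61, 1.93 and 1.72 CPM in ZT1 LPS mice. Its ZT13 values were 0.84, 0.93 and 0.85 CPM with PBS and at 1.59, 2.36, 1.76, 2.35 and 2.46 CPM with LPS. Its change was smaller than that of its neighbour, at a log2 fold change of 0.95 (SE 0.15, adjusted p = 0.00166) and 0.91 (SE 0.16, adjusted p = 6.44e-04). *C5ar2* also passed only through LPS mice, and with no filter its adjusted p was 0.00944 and 0.00719. *C1qbp*, a mainly mitochondrial protein that binds C1q, averaged 25.1 to 29.6 CPM in the 4 groups and was not called (log2 fold change 0.08, adjusted p = 0.445, and 0.17, adjusted p = 0.0953). With the replicate block it was called higher at ZT13 (0.25, adjusted p = 0.0255), as without ZT13 LPS replicate 4 (0.21, adjusted p = 0.0479). *Vsig4*, a macrophage receptor for C3 fragments, was not above 3 reads in any mouse.

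Of the inhibitors, *Serping1* rose far more than the membrane regulators. *Serping1* encodes C1 inhibitor, the serpin that inactivates C1r, C1s and the MASP proteases. It was at 3.06, 6.07 and 4.97 CPM in ZT1 PBS mice and 29.5, 21.8, 24.8, 23.0 and 23.9 CPM in ZT1 LPS mice. At ZT13 it was at 5.24, 5.04 and 3.81 CPM with PBS and 27.9, 27.0, 36.9, 30.2 and 23.96 CPM with LPS. These groups were separated by a wide gap, with log2 fold changes of 2.31 (SE 0.17, adjusted p = 6.1e-06) and 2.51 (SE 0.13, adjusted p = 5.51e-09). *Clu*, the gene of clusterin, an abundant secreted protein that restrains the membrane attack complex, was at 503, 541 and 525 CPM in ZT1 PBS mice and 799, 654, 681, 720 and 710 CPM in ZT1 LPS mice. The values at ZT13 were 524, 531 and 525.6 CPM with PBS and 806, 808, 736, 775 and 825 CPM with LPS. The change was modest but well outside the spread, with log2 fold changes of 0.44 (SE 0.06, adjusted p = 3.8e-04) and 0.58 (SE 0.04, adjusted p = 5.37e-08). *Cd46*, a membrane cofactor for inactivation of C3b, was at 12.6, 11.1 and 10.8 CPM in ZT1 PBS mice and 15.9, 13.8, 14.1, 14.6 and 14.6 CPM in ZT1 LPS mice. In ZT13 mice the gene was at 13.3, 11.0 and 12.7 CPM with PBS and 14.8, 14.1, 14.7, 14.6 and 16.4 CPM with LPS, a narrow separation. Its log2 fold changes were 0.33 (SE 0.08, adjusted p = 0.0138) and 0.27 (SE 0.08, adjusted p = 0.0213).

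*Cd46* overlaps *A330023F24Rik* on the other strand, at 104 to 149 CPM, so antisense reads may enter its value. The *Cd46* call was lost under quantile normalization at ZT1 (adjusted p = 0.0592) and ZT13 (0.261), and at ZT13 also with median-of-ratios scaling (0.0562), no filter (0.0635) and the replicate block (0.0759). It was also lost without ZT1 PBS replicate 2 (0.0639) or 3 (0.0748) and without ZT13 PBS replicate 2 (0.125). *Cr1l*, the gene of the rodent regulator Crry, which lies beside *Cd46*, rose from a mean of 19.9 to 22.8 CPM at ZT1 (log2 fold change 0.19, adjusted p = 0.0482) and from 18.7 to 22.3 CPM at ZT13 (0.24, adjusted p = 0.00439). The *Cr1l* call at ZT1 did not hold with median-of-ratios scaling (adjusted p = 0.105), quantile normalization (0.187), no intensity trend (0.0572), the replicate block (0.182) or the choroid plexus markers as a covariate (0.0688), and it held only without ZT1 LPS replicate 2 or 5 when 1 mouse was left out (otherwise adjusted p = 0.0612 to 0.152). At ZT13 it was lost under quantile normalization (0.0544). *Cd55*, which speeds decay of the convertases, averaged 3.02 and 4.14 CPM at ZT1 (0.36, adjusted p = 0.271) and rose from 2.91 to 4.30 CPM at ZT13 (0.49, adjusted p = 0.00398), a call lost under quantile normalization (0.0734). *Cd59a*, the membrane inhibitor of the attack complex, averaged 1.78 to 1.91 CPM in the 4 groups, with log2 fold changes of 0.01 at both times whose sign turned under several alternatives. *Cfi*, the gene of factor I, was not above 3 reads in any mouse.

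The interaction of time of day (TOD) and treatment asks whether the LPS response differed between ZT1 and ZT13. It was called for 1 of the 25 members, *C1s1*, against 0.159% of all genes tested. *C1s1* passed the filter on low values only through LPS mice, and with no filter its interaction was not called (adjusted p = 0.13). The LPS response of *C1s1* was larger at ZT13 by 1.22 on the log2 scale (SE 0.23, 95% confidence interval 0.74 to 1.69, adjusted p = 0.0364). Its groups did not overlap between the times in PBS mice, where ZT13 was lower, or in LPS mice, where ZT13 was higher. It was the only member whose LPS groups did not overlap between ZT1 and ZT13, where 1.96% of all genes did not, and in PBS mice 6 of the 25 members did not, against 18.7% of all genes. The *C1s1* call was close to the threshold and held in 5 of 10 alternative fits (adjusted p 0.00999 to 0.13). Among the fits where it held was that with the choroid plexus markers as a covariate, chosen after seeing the data. It held in 5 of 16 fits that left out 1 mouse (adjusted p 0.0139 to 0.118), namely those without ZT1 PBS replicate 2, ZT1 LPS replicates 1 and 2, and ZT13 LPS replicates 1 and 2, and the estimate stayed between 1.07 and 1.35 in these.

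A further 5 members had an unadjusted p under 0.05 for the interaction, so 6 in all against 9.25% of all genes in either direction. Each of the 6 had the larger LPS response at ZT13, and the further 5 did not pass the adjusted threshold. Of the 6, *C1s1*, *C3*, *C5ar1* and *Cfb* passed the filter only through LPS mice. The counts and the median given here for the interaction were not taken without such members. The limma p is given first below, and then that of an exact permutation (two-sided) of time labels within each treatment, which cannot go below 0.0004. *C3* had an interaction of 1.42 on the log2 scale (p = 0.00287, exact p = 0.00119) and *C5ar1* of 0.81 (p = 0.00539, exact p = 0.00675). *C3ar1* (0.75, p = 0.0302, exact p = 0.046) and *Cfp* (0.34, p = 0.0427, exact p = 0.0123) were weaker by the limma p. *Cfb* (0.66, p = 0.039) had an exact p of 0.0619. For *C1s1* the exact p was 0.0004, the smallest the test can give. Among the 17 members that rose at both times, the ZT13 response was the larger for 13, and this share was not counted over all genes that rose. The interaction was above 0 for 20 of the 25 members and for 54.0% of all genes. Of the 30 genes called for it over all genes, 23 were above 0. The median interaction of the 25 members was 0.18, and over all genes it was 0.01. For the C1q chains the intervals of the difference were -0.09 to 0.45 for *C1qa*, -0.26 to 0.17 for *C1qb* and -0.10 to 0.64 for *C1qc*. For *C4b* the interval was -0.20 to 0.55. *C3* became called in the fit without ZT1 LPS replicate 1 and with sample quality weights (adjusted p = 0.031 and 0.0416), in which 0.551% and 0.658% of all genes were called.

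**Figure D3:**
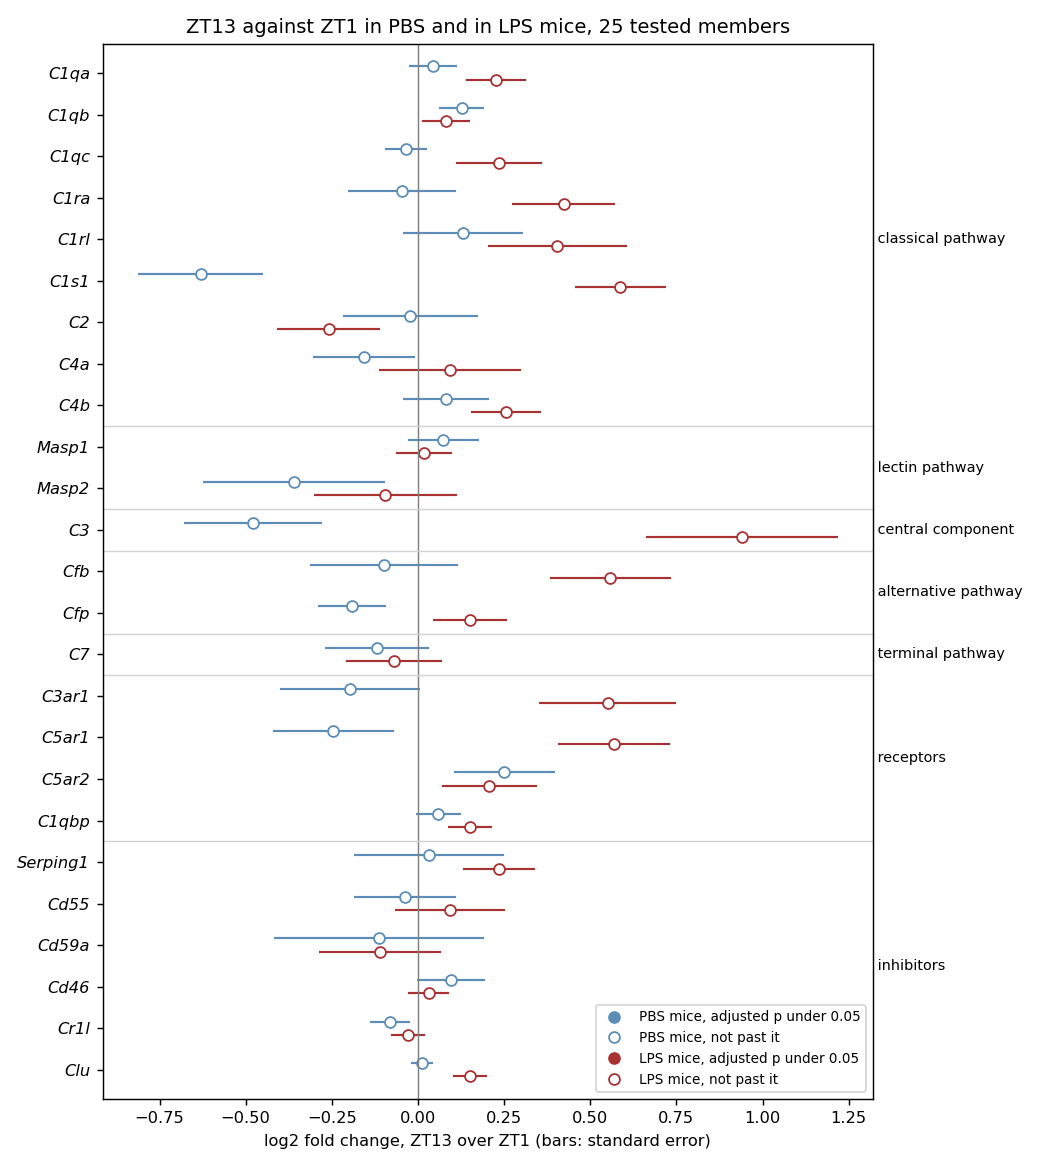
Log2 fold change of ZT13 over ZT1 (x axis) in PBS mice (blue) and in LPS mice (red) for the 25 tested complement genes (y axis, grouped by role), with standard errors as bars. All points are open because no member passed an adjusted p of 0.05, and *C1s1* and *C3* lie left of 0 in PBS mice (-0.63 and -0.48) and right of 0 in LPS mice (0.59 and 0.94).

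Comparing LPS mice alone, 0 of 25 members were called between ZT13 and ZT1 by limma, where 0.0212% of all genes were. The change was above 0 for 20 of the 25 members and for 55.6% of all genes. At an unadjusted p under 0.05 there were 11 members against 10.6% of all genes in either direction, and all 11 were higher at ZT13. The direction of all genes at that p was not counted. Of the 11, *C1s1*, *C3*, *C5ar1* and *Cfb* passed the filter only through LPS mice, and the count was not taken without such members. *C1s1* came first, with a log2 fold change of 0.59 (limma p = 6.4e-04, adjusted p = 0.113, exact permutation p = 0.0079, the smallest that 5 mice against 5 allow). It was followed by *C5ar1* (0.57, p = 0.00392, exact p = 0.0238), *C3* (0.94, p = 0.00471, exact p = 0.0159), *Cfb* (0.56, p = 0.00692, exact p = 0.0397), *Clu* (0.15, p = 0.00925, exact p = 0.0317) and *C1qbp* (0.15, p = 0.033, exact p = 0.0476). The other 5 had an exact p above 0.05, namely *C1ra* (0.42, p = 0.0146, exact p = 0.0635), *C3ar1* (0.55, p = 0.0154, exact p = 0.0714), *C1qa* (0.23, p = 0.021, exact p = 0.0794), *C4b* (0.26, p = 0.0265, exact p = 0.0794) and *Serping1* (0.24, p = 0.0418, exact p = 0.0952). With sample quality weights 2 members were called (*C1s1* and *C3*) and 1.19% of all genes, and without ZT1 LPS replicate 1 there were 4 (*C1s1*, *C3*, *Cfb* and *Clu*) and 1.83% of all genes. Of all genes called in these fits, 203 of 225 and 317 of 345 were higher at ZT13. In PBS mice, 0 members were called by limma, where 0.52% of all genes were. At an unadjusted p under 0.05 there were 2 members against 13.5% of all genes, *C1s1* (-0.63, p = 0.00656) and *C3* (-0.48, p = 0.0391), both with lower values at ZT13 and both at an exact permutation p of 0.1, the smallest that 3 mice against 3 allow. The interaction uses the same mice as these comparisons and is no separate evidence.

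Within the ZT1 LPS group the same mouse was often the lowest. Replicate 2 was the lowest of the 5 mice for 12 of the 17 members that rose. Replicate 1 was the highest for 9 and replicate 4 for 7. In replicate 2 *C3* was at 14.9 CPM against 28.8 to 66.0 CPM in the other ZT1 LPS mice, and *C1qc* was at 48.1 CPM against 69.2 to 88.3 CPM. *C2* went the other way, with its highest value of the group, 4.18 CPM, in replicate 2. The microglial gene *Csf1r* was at 87.6 CPM in this mouse and at 116 to 140 CPM in the other ZT1 LPS mice, and the neutrophil gene *S100a9* at 4.61 CPM against 4.94 to 26.4 CPM. *Lcn2*, an acute-phase gene, was at 202 CPM in replicate 2, the second highest of the group, whose other mice were at 107 to 326 CPM. At ZT13 no LPS mouse was lowest for more than 5 of the 17 members.

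**Figure D4:**
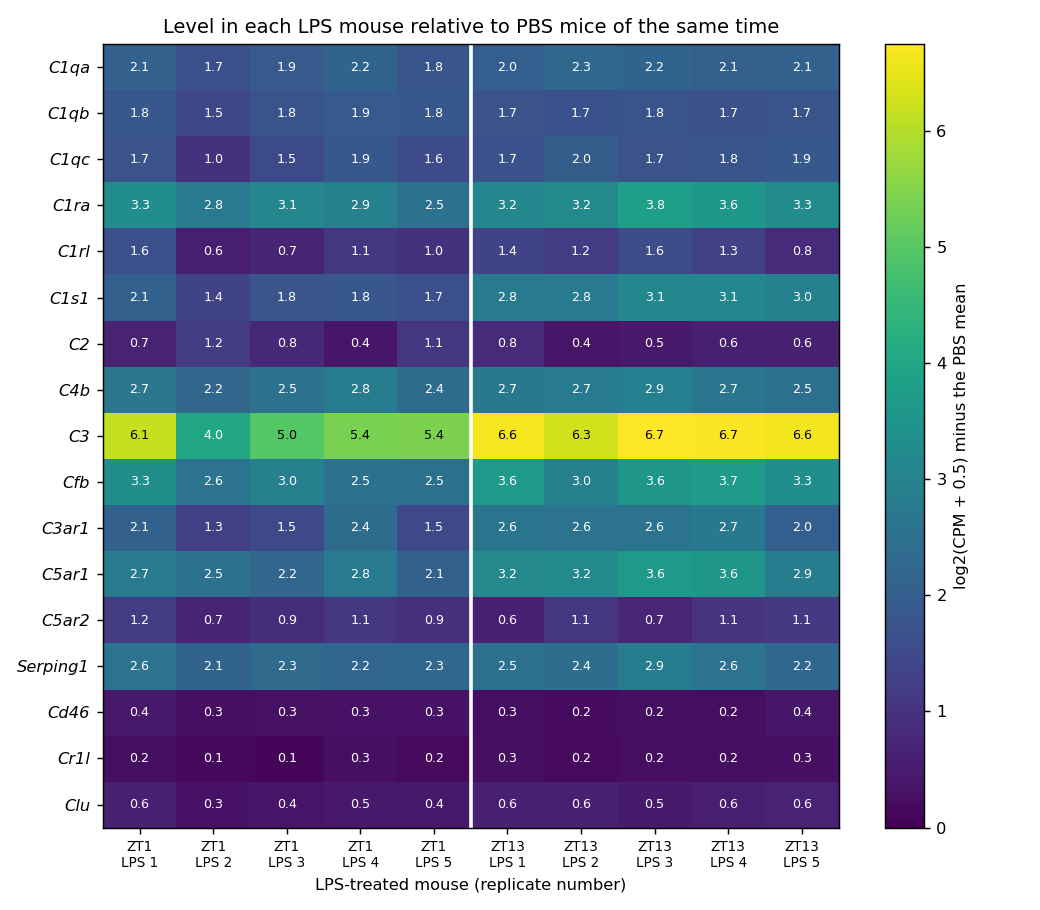
Level of the 17 members that rose at ZT1 (y axis) in each of the 10 LPS mice (x axis), as log2(CPM + 0.5) minus the mean of the PBS mice of the same time (colour and printed value). ZT1 LPS replicate 2 has the lowest value of its group for 12 genes, for example 4.0 for *C3* against 5.0 to 6.1, and the ZT13 mice range from 6.3 to 6.7 for *C3*.

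Markers of several cell types moved with LPS beside the complement genes. Of 5 microglial markers, *Csf1r*, *Tmem119* and *Cx3cr1* rose at both times while *P2ry12* and *Siglech* fell, and their sum was 138 to 149.8 CPM in ZT1 PBS, 140.3 to 240.2 CPM in ZT1 LPS, 132 to 142.5 CPM in ZT13 PBS and 181 to 207 CPM in ZT13 LPS mice. By group means at ZT1 and ZT13, *Csf1r* stood at 1.53 and 1.51 times the PBS mean, *Tmem119* at 1.70 and 1.62, and *Cx3cr1* at 1.60 and 1.82. *P2ry12* stood at 0.46 and 0.43 and *Siglech* at 0.25 and 0.13. The C1q chains stood at 2.99 to 4.45 times the PBS mean, and *Itgam*, a gene of complement receptor 3, at 4.94 and 6.95 times. Of 6 astrocyte markers, 4 rose at both times, and *Gfap* rose by 2.64 and 3.09 on the log2 scale. Neutrophil markers summed to 0.592 to 1.04 CPM in ZT1 PBS and 8.47 to 42.9 CPM in ZT1 LPS mice, and to 0.416 to 1.08 CPM and 28.1 to 74.4 CPM at ZT13. Monocyte markers summed to 0.154 to 0.535 CPM in PBS and 2.15 to 5.84 CPM in LPS mice. Perivascular macrophage markers summed to 7.58 to 11.2 CPM in ZT1 PBS and 10.4 to 23.4 CPM in ZT1 LPS mice, and to 10.1 to 10.6 CPM and 25.2 to 28.4 CPM at ZT13. Of these 5 markers 4 were tested, and 2 were called higher at both times, *Cd163* (log2 fold change 1.07 and 1.07) and *F13a1* (1.75 and 2.15). *Mrc1* (-0.06 and 0.15) and *Lyve1* (0.54 and 0.36) were not called. Markers of meningeal fibroblasts summed to 76.9 to 104 CPM and 101 to 125 CPM at ZT1, and to 70.6 to 74.1 CPM and 103 to 120.3 CPM at ZT13, with 1 of 5 called higher at ZT1 and 3 at ZT13, among them *Dcn* (log2 fold change 1.54 and 2.13). The part of these cells in the complement changes was not tested. Endothelial markers summed to 89.0 to 94.8 CPM in ZT1 PBS and 58.8 to 72.7 CPM in ZT13 PBS mice, and to 127 to 191 CPM and 184 to 204 CPM in the LPS mice. For 4 of these 5 markers the interaction was called (*Cldn5* 1.36, *Kdr* 1.39, *Pecam1* 0.78 and *Cdh5* 0.67), while *Slco1a4* was at -0.44 (adjusted p = 0.441), and their part in the *C1s1* result was not tested.

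A list of 37 other complement genes and receptors was read beside the members, and 15 of them were tested. At ZT1, 5 rose and 1 fell, and at ZT13, 5 rose and 3 fell, with medians of -0.02 and -0.03. The risers were the same genes at both times. They were *Itgam* (log2 fold change 2.22 and 2.75) and *Itgb2* (2.12 and 2.76), which encode the chains of complement receptor 3, *Cd93* (2.10 and 3.18), *Ptx3*, the gene of the C1q-binding pentraxin 3, which passed the filter only through LPS mice (1.00 and 1.31), and *Sez6l2* (0.14 and 0.20). *Csmd2* fell at both times (-0.35 and -0.23), and the neuronal complement regulators *Sez6* (-0.11) and *Susd4* (-0.18) fell at ZT13. *Cd93* alone of the 15 was called for the interaction (1.08, adjusted p = 0.0189). *Mbl1* and *Mbl2*, the mannose-binding lectins that activate the MASP proteases, were listed at 0 in all mice.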

How the data were processed

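The authors deposited 1 table of CPM, reads on a gene per 1000000 reads on all genes of a sample, from cortex RNA depleted of ribosomal RNA. The submitters' processing notes name bcl2fastq, DRAGEN 4.0.3-8 and GRCm38; the strand setting of the counting is not given in the sources used here. Of 55774 lines, 287 repeated a gene with identical values and were dropped, leaving 55487 genes, of which 55227 identifiers were in GENCODE M21 (GRCm38), used for coordinates and exon lengths. The smallest step between values gave the depth. Of values up to 20 reads, 80.5% to 82.0% lay within 0.001 reads of a whole number, so counts were not recovered and no count model was used.

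Groups came from sample titles. Genes that reached 1 CPM in 3 or more of the 16 samples were tested on log2(CPM + 0.5) with limma 3.58.1 (R 4.3.3), with an intensity trend and Benjamini-Hochberg adjustment over all 18859 genes, and called at an adjusted p under 0.05. LPS against PBS and ZT13 against ZT1 were fitted on their own groups, and the interaction on all 16 mice. SE and intervals are those of the fit, the 95% level is that of the interval, and ± is the SD between mice. Single members were also compared between times by exact permutation tests, two-sided. The fit was tested on simulated data.

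The members, the other lists and the tests were chosen with earlier results of these data known, and 2 genes of the other lists are not reported here. Values in every mouse are given for up to 3 members per role called at both times, those with the largest mean change first, and for any member called for TOD or the interaction. Members at an unadjusted p under 0.05 for TOD or the interaction are named with that p, and the rest by means or ranges. Promoter sequences are RefSeq's on GRCm38.p6, and motifs were searched on both strands. Alternatives were pseudocounts of 0.1 and 1, no filter, a filter of 5 CPM, median-of-ratios and quantile scaling, a single fit, quality weights, no trend, a replicate block and leaving out each mouse. A fit with the choroid plexus markers as a covariate was added after seeing the data. Figures used matplotlib 3.10.9.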

Additional observations from a re-analysis of the deposited data

Results flagged for a closer look

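The TOD by treatment interaction of *C1s1*, the C1s protease gene, was called by limma: its LPS response was larger at ZT13 than at ZT1 by 1.22 on the log2 scale (adjusted p = 0.0364). The 5 ZT13 LPS mice were all above the 5 ZT1 LPS mice, and the 3 ZT13 PBS mice were all below the 3 ZT1 PBS mice. The adjusted p ranged from 0.00999 to 0.13 over the alternative fits. It was 0.13 with no filter on low values, a filter that *C1s1* passed only through LPS mice.

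Of 50 sets of 5 LPS mice examined over the tested members, 2 held a mouse far from the other 4, where chance alone marks about 1 in 20. *C3ar1* was at 8.91 CPM in ZT13 LPS replicate 5, the lowest of its group, and the next mouse was at 13.3 CPM. *Cfp* was at 8.28 CPM in ZT13 LPS replicate 1, with the next mouse at 8.96 CPM.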

How the results depend on the processing

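The number of members called higher with LPS was 14 to 17 at ZT1 and 15 to 19 at ZT13 over the alternatives, against 17 and 19 as reported, and 14 to 18 and 18 to 20 when each mouse was left out in turn. In these fits each member called higher as reported kept its direction, and sign changes of members not called are given below. The interaction called 0 members with a pseudocount of 1, with no filter, with a filter of 5 CPM, with quantile normalization and with no intensity trend, and 2 with sample quality weights (*C1s1* and *C3*). Leaving out 1 mouse gave 0 to 2 (2 without ZT1 LPS replicate 1, and 0 in 11 of the 16 such fits). Over all genes the interaction called 30 as reported, 124 with weights and 104 without that mouse. For ZT13 against ZT1 in LPS mice, quality weights gave 2 and leaving out 1 mouse gave 0 to 4, the 4 without ZT1 LPS replicate 1, while over all genes the calls went from 4 to 225 with weights and 345 without that mouse. In PBS mice no fit called a member. The filters also change the number of genes in the adjustment. The cause of these changes was not tested.

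Same-numbered mice did not deviate together (correlations of -0.20 to 0.33), so the numbers were not taken as pairs. With the replicate block 15 members were called higher at ZT1, 18 at ZT13 and 1 for the interaction. Of all 18859 genes, that fit called 1688 and 3173 higher, and 25 for the interaction. *C4a* turned to -0.11 at ZT1 in that fit. Among members that were not called, *Cd59a* at ZT1 turned to -0.025 with median-of-ratios scaling, -0.12 with quantile normalization, -0.019 with quality weights and -0.036 with the choroid plexus markers as a covariate, an alternative chosen after seeing the data. At ZT13 its values were -0.030, -0.20 and -0.017 in the first 3 of these. Under quantile normalization *C7* was at -0.080 and -0.10 at the 2 times and *Masp2* at -0.26 at ZT13. Leaving out 1 mouse moved *Masp2* from -0.39 to 0.15 at ZT1, and *Cd59a* from -0.17 to 0.19 at ZT1 and from -0.34 to 0.27 at ZT13.

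Over all genes, 2089 were called higher and 972 lower at ZT1, and 3629 and 1772 at ZT13. Median-of-ratios scaling gave 1656 and 1390, and 2842 and 2831, and quantile normalization 1493 and 1426, and 2540 and 3106. Quantile normalization moved the median of all genes by -0.076 at ZT1 and -0.11 at ZT13. With 3 PBS mice per time and members such as *C3* at 2 to 16 reads in them, the baseline of the lowest members was imprecise.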
